A study of Homo sapiens with 6 samples.

Results

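The 10 genes described here encode proteins that carry DNA methylation, Polycomb silencing and nucleosome assembly through S phase. DNMT1, UHRF1, HELLS and CDCA7 act in the upkeep of DNA methylation, EZH2, SUZ12 and EED form the core of Polycomb repressive complex 2 (PRC2), and CHAF1A, CHAF1B and ASF1B encode histone chaperones. They were chosen by their symbols, and all 10 were found among the 61552 genes of the deposited table. Expression was measured by sequencing poly(A) RNA of SKOV3, an established human ovarian cancer line. Cells received fenbendazole at 1 µM, a benzimidazole anthelmintic that binds tubulin, or the vehicle DMSO, and both groups were kept for 48 h. Each group held 3 libraries, titled DMSO 10, 11 and 12 and fenbendazole 7, 8 and 9. Whether they came from separate cultures is not stated in the labels. The spread that the p-values rest on may therefore be technical.

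When DNA is copied, the new strand lacks methyl groups. UHRF1 recognises the half-methylated sites and ubiquitylates histone H3, which recruits the methyltransferase DNMT1, and the remodeler HELLS with its partner CDCA7 opens nucleosomal DNA for this step. PRC2 methylates lysine 27 of histone H3, with EZH2 as the catalytic subunit and SUZ12 and EED as the partners it needs for activity. ASF1 hands newly made H3 and H4 to chromatin assembly factor 1 (CAF-1), whose subunits CHAF1A, CHAF1B and RBBP4 place them on replicated DNA at the sliding clamp PCNA.

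Libraries held 13170775 to 22128930 counts. DMSO 11 stood apart from the other controls. Chi-square over degrees of freedom was 91.2 and 100.4 between its counts and those of DMSO 10 and 12. The other replicate pairs gave 5.34 to 9.37, and no library repeated another. All 7 SKOV3 and epithelial markers had counts in both groups, led by ERBB2 (10757 ± 4455 CPM in DMSO and 4394 ± 212.3 with fenbendazole, SD, n = 3 each). The 5 leukocyte markers summed to 0.334 to 0.967 CPM in DMSO and 0.662 to 1.804 with fenbendazole, with CD3E at 0 in every library. The 5 fibroblast and endothelial markers summed to 49.5 to 93.0 and 52.4 to 55.9 CPM. Most of this was COL1A1 (51.6 ± 25.1 CPM in DMSO and 39.9 ± 1.24 with fenbendazole), followed by PECAM1 (10.3 ± 1.10 and 12.2 ± 0.427). COL3A1 had means of 2.78 and 1.91 CPM, DCN of 0.0991 and 0.0722, and CDH5 of 0.0664 and 0.0589. CPM values are counts scaled to a common library size with TMM, edgeR's correction for library composition.

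Of the 10 genes, 7 rose with fenbendazole and 0 fell in edgeR's quasi-likelihood test at a Benjamini-Hochberg adjusted p of 0.05. Over all 17363 genes tested, 540 (3.11%) rose and 160 (0.921%) fell, 4.03% in all. With upper-quartile scaling the same test gave 455 higher (2.62%) and 231 lower genes, and again 7 of the 10. ASF1B, HELLS, UHRF1, CHAF1A, EZH2, CDCA7 and CHAF1B rose, from 4.04-fold (ASF1B) down to 1.70-fold (CHAF1B). DNMT1, SUZ12 and EED did not pass. All 10 genes passed the filter on low counts, and their median log2 fold change was 1.07, against -0.06 over all genes tested. In each of the 10 the highest DMSO library lay below the lowest fenbendazole library, a pattern that 17.0% of all genes tested showed, against 15.5% in the reverse direction. In RNA from bulk cells, more cells in S phase or in later phases of the cycle cannot be told apart from more transcript per cell. PCNA, which is itself made for S phase, rose from 51.5 ± 4.30 to 124.0 ± 5.13 CPM, and MKI67, whose protein marks cycling cells, from 137.0 ± 36.0 to 763.9 ± 14.4 CPM. The part of such a shift in the rise of the 10 genes was not tested.

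**Figure D1:**
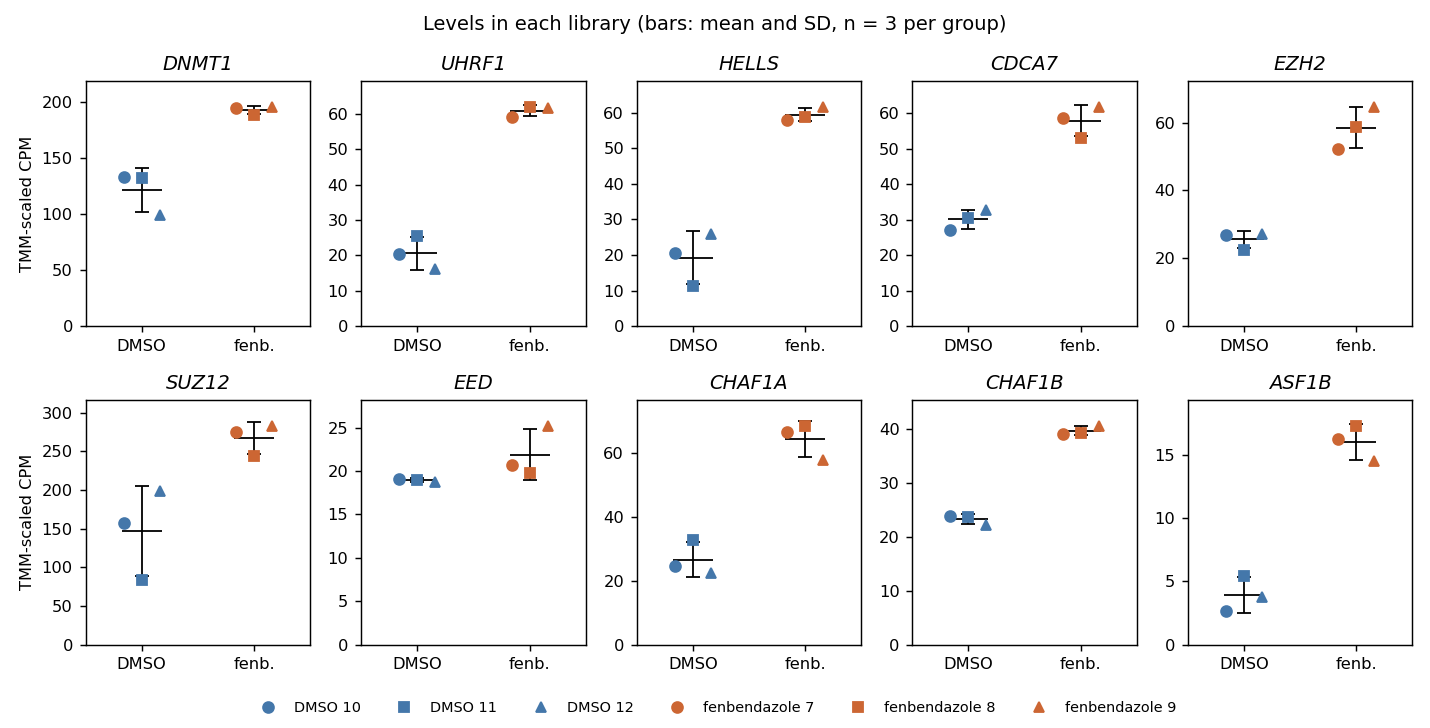
TMM-scaled CPM of each of the 10 genes (vertical axis, from 0) in the 3 DMSO libraries (blue) and the 3 fenbendazole libraries (orange), with the group mean and SD in black. In every panel the 3 fenbendazole points lie above the 3 DMSO points, by little for EED, and DMSO 11 (square) is the lowest point for HELLS, SUZ12 and EZH2 and the highest control for ASF1B, UHRF1 and CHAF1A.

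The number of calls depended on single libraries. Without DMSO 11, 9 of the 10 genes passed, DNMT1 and SUZ12 included (adjusted p = 0.0012 and 0.00413 by edgeR's quasi-likelihood test), while 13.1% of all genes were higher in that fit. That fit leaves out the control farthest from the others, and may understate how much controls vary. Without DMSO 10, 3 genes passed (ASF1B, EZH2 and UHRF1), with 1.4% of all genes higher, and without DMSO 12, 6 passed, with CHAF1B lost and 2.32% of all genes higher. Without fenbendazole 7, 8 and 9, 2, 0 and 0 of the 10 passed, and 0.763%, 0.787% and 0.793% of all genes were higher. The median log2 fold change of the 10 genes was between 1.01 and 1.16 in each of these 6 fits. Other settings gave 7 of the 10 genes with median-of-ratios scaling (3.15% of all genes higher), limma-voom (3.23%) and limma on log2 FPKM plus 1 (3.41%) or 0.1 (3.21%). They gave 6 with no filter (1.34%), 8 with a filter of 1 CPM (4.33%), and 9 with DESeq2 (6.66%) and with library quality weights (14.0%). An adjusted p of 0.01 left UHRF1 and EZH2 (1.11%), and a test against a 1.5-fold change left UHRF1 and ASF1B (1.15%).

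Promoter stretches are shown for DNMT1 and for 6 of the genes that rose. These 6 were picked for a motif match within 100 bases before the start site or just after it. Whether the motifs bear on the rise was not tested. Promoter windows came from RefSeq (GRCh38.p14), each with 250 bases before and 50 after an annotated start site, and all 10 genes matched, with 13 windows in all. E2F factors, which switch on S-phase genes, bind sites of the TTTCCCGC, TTTGGCGC or TTTCGCGC type. A CCAAT box is the site of NF-Y, and TTTGAA is the core of the cell cycle homology region, or CHR, of many genes expressed late in the cycle. Both strands were searched, and capitals mark each match as it reads on the printed strand. Each stretch runs 5′ to 3′ on the gene's strand to the base before the start site, except for DNMT1 and EZH2, where it ends 6 and 9 bases after it with the match.

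UHRF1, chr19:4909401-4909500, plus strand: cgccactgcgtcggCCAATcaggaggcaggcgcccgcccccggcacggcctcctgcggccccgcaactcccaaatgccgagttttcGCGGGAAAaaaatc
HELLS, chr10:94545688-94545787, plus strand: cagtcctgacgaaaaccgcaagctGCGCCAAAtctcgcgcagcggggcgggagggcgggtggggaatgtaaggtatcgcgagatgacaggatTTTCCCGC
CDCA7, chr2:173354772-173354871, plus strand: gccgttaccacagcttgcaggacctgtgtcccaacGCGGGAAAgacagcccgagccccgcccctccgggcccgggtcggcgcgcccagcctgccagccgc
DNMT1, chr19:10194948-10195053, minus strand: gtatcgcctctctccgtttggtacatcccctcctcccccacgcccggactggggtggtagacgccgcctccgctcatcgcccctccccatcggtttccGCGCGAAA
EZH2, chr7:148884283-148884391, minus strand: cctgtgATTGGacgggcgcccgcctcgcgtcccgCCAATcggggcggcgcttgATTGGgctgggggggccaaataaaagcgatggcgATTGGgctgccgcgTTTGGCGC
CHAF1A, chr19:4402540-4402639, plus strand: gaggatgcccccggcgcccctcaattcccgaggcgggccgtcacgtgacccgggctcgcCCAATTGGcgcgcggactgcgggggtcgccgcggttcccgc
ASF1B, chr19:14136590-14136689, minus strand: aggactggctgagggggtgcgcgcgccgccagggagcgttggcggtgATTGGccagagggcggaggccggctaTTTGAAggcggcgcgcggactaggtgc

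An E2F-like motif was found in the windows of 6 of the 10 genes (DNMT1, UHRF1, HELLS, CDCA7, EZH2 and SUZ12), and in 2.74% of all 35116 windows of this length in the table. Here and below a gene counted if any of its windows held the motif, while the shares are of single windows. UHRF1 had 3 windows and EZH2 had 2, so the 2 measures are not alike for them. The shares are also not matched for GC content, which was 52.3% to 79.7% in the windows of the 10 genes. By type, TTTCCCGC was in 1.63%, TTTGGCGC in 0.652% and TTTCGCGC in 0.515% of all windows. HELLS held a pair of them, 76 and 8 bases before its start site. A CCAAT box was in the windows of 7 of the 10 genes and in 34.6% of all windows. EZH2 had 4 CCAAT boxes, all in the stretch shown, and CHAF1A also had 4, of which the pair nearest the start overlaps on opposite strands. The CHR motif was in the windows of ASF1B and SUZ12 and in 15.2% of all windows. CHAF1B held none of these motifs and rose, and SUZ12 and DNMT1 held an E2F-like motif and did not pass the test with all 6 libraries. A match is a string of letters and does not show that a factor binds there.

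Among the genes of DNA methylation upkeep, UHRF1 had the smallest adjusted p of the 10. UHRF1 (ENSG00000276043, GRCh38 chromosome 19, 4903080 to 4962154) stood at 20.4, 25.4 and 16.1 CPM in DMSO 10, 11 and 12 and at 59.1, 61.8 and 61.8 CPM in fenbendazole 7, 8 and 9. The treated libraries lay within 3 CPM of each other, all more than 2-fold above the highest control. Its log2 fold change was 1.56 ± 0.191 (SE, adjusted p = 0.00662 by edgeR's quasi-likelihood test), and the call was lost without fenbendazole 8 (adjusted p = 0.0517) and 9 (0.0543).

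HELLS (ENSG00000119969, chromosome 10, 94501434 to 94613905), the nucleosome remodeler, stood at 20.6, 11.1 and 26.0 CPM in DMSO and 58.1, 58.8 and 61.6 CPM with fenbendazole. Its controls were spread over more than 2-fold, with DMSO 11 the lowest, while its treated libraries were close together. The log2 fold change was 1.63 ± 0.291 (adjusted p = 0.0245 by edgeR's quasi-likelihood test), and 1.37 ± 0.119 without DMSO 11. Leaving out DMSO 10 ended the call (adjusted p = 0.0948), as did leaving out fenbendazole 7, 8 or 9 (0.115, 0.108 and 0.129). The deposited span of HELLS begins well before the RefSeq start used above, as do the spans of UHRF1 and DNMT1 before theirs. HELLS overlaps TBC1D12 on the same strand, whose counts equalled 43.1% of those of HELLS. The log2 fold change of TBC1D12 was -0.41 (adjusted p = 0.249 by edgeR's quasi-likelihood test).

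CDCA7 (ENSG00000144354, chromosome 2, 173354820 to 173368997), which brings HELLS to chromatin, stood at 27.1, 30.4 and 32.6 CPM in DMSO and 58.7, 53.0 and 61.7 CPM with fenbendazole. Here DMSO 11 lay between the other controls. The log2 fold change was 0.95 ± 0.146 (adjusted p = 0.014 by edgeR's quasi-likelihood test). It did not pass in the fits that left out DMSO 10 (adjusted p = 0.0707) or fenbendazole 7, 8 or 9 (0.106, 0.0765 and 0.112).

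DNMT1 (ENSG00000130816, chromosome 19, 10133342 to 10231286), the maintenance methyltransferase, had the second highest level per length of the 10 genes in both groups. It stood at 134, 133 and 98.8 CPM in DMSO and 195, 189 and 196 CPM with fenbendazole. DMSO 12 was the low control, and no control reached the treated range. The log2 fold change was 0.66 ± 0.148 and missed the threshold (adjusted p = 0.0544 by edgeR's quasi-likelihood test). It was 0.74 ± 0.110 without DMSO 11. Counts of S1PR2, which overlaps DNMT1 on the same strand, equalled 4.61% of those of DNMT1.

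Of the PRC2 core subunits EZH2 passed the test, while SUZ12 and EED did not, which does not show that they differ. EZH2 (ENSG00000106462, chromosome 7, 148807257 to 148884321), the H3 lysine 27 methyltransferase, stood at 26.7, 22.6 and 27.3 CPM in DMSO and 52.4, 58.6 and 64.5 CPM with fenbendazole. The lowest treated library was nearly 2-fold above the highest control. Its log2 fold change was 1.20 ± 0.157 (adjusted p = 0.00803 by edgeR's quasi-likelihood test), and the call was lost without fenbendazole 8 (adjusted p = 0.0623) and 9 (0.0706).

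SUZ12 (ENSG00000178691, chromosome 17, 31937007 to 32001038), which holds the complex together, stood at 157, 84.0 and 199 CPM in DMSO and 275, 244 and 283 CPM with fenbendazole. DMSO 11 was again the lowest control. Its log2 fold change of 0.87 ± 0.287 did not pass (adjusted p = 0.146 by edgeR's quasi-likelihood test), and without DMSO 11 it was 0.59 ± 0.107. The pseudogene SUZ12P1, with counts equal to 8.06% of those of SUZ12, may share reads with it, and its own log2 fold change was -0.14 (adjusted p = 0.656).

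EED (ENSG00000074266, chromosome 11, 86244753 to 86278813), which binds the methylated lysine, stood at 19.1, 19.0 and 18.7 CPM in DMSO and 20.7, 19.8 and 25.2 CPM with fenbendazole. Its controls were nearly level, and fenbendazole 9 held most of the difference. The log2 fold change was 0.21 ± 0.168 (adjusted p = 0.499 by edgeR's quasi-likelihood test), and with offsets for GC content and length it turned to -0.32 (adjusted p = 0.447). The direction of EED thus depended on the setting.

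All 3 chaperone genes rose. ASF1B (ENSG00000105011, chromosome 19, 14119512 to 14136613), the ASF1 paralog tied to proliferation, had the largest change and the lowest level in DMSO of the 10 genes. It stood at 2.62, 5.44 and 3.79 CPM in DMSO, from 47, 124 and 51 counts, and at 16.3, 17.3 and 14.5 CPM with fenbendazole. Its log2 fold change was 2.01 ± 0.292 (adjusted p = 0.0117 by edgeR's quasi-likelihood test), and 2.34 ± 0.219 without DMSO 11. The call was lost without fenbendazole 7, 8 and 9 (adjusted p = 0.0753, 0.0759 and 0.0683).

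CHAF1A (ENSG00000167670, chromosome 19, 4402640 to 4445018), the large CAF-1 subunit that binds PCNA, stood at 24.6, 32.7 and 22.4 CPM in DMSO and 66.5, 68.4 and 57.7 CPM with fenbendazole. DMSO 11 was the highest control. The log2 fold change was 1.27 ± 0.184 (adjusted p = 0.0115 by edgeR's quasi-likelihood test), and the adjusted p was 0.0638 when DMSO 10 was left out and 0.0832, 0.0797 and 0.0648 when fenbendazole 7, 8 or 9 was. UBXN6 overlaps CHAF1A on the opposite strand with 175% of its counts, and its own log2 fold change was -0.72 (adjusted p = 0.226). The labels do not say whether strand was kept, so reads of the pair cannot be told apart where they overlap.

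CHAF1B (ENSG00000159259, chromosome 21, 36385392 to 36419015), the middle CAF-1 subunit, had little spread within either group. It stood at 24.0, 23.7 and 22.2 CPM in DMSO and 39.1, 39.3 and 40.6 CPM with fenbendazole. The log2 fold change was 0.77 ± 0.139 (adjusted p = 0.0245 by edgeR's quasi-likelihood test). It was lost without DMSO 10 and 12 (adjusted p = 0.0936 and 0.0661), without fenbendazole 7, 8 and 9 (0.16, 0.147 and 0.166) and with no filter on low counts (0.0515). MORC3 overlaps it on the same strand with 241% of its counts, and its own log2 fold change was 0.37 (adjusted p = 0.453).

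**Figure D2:**
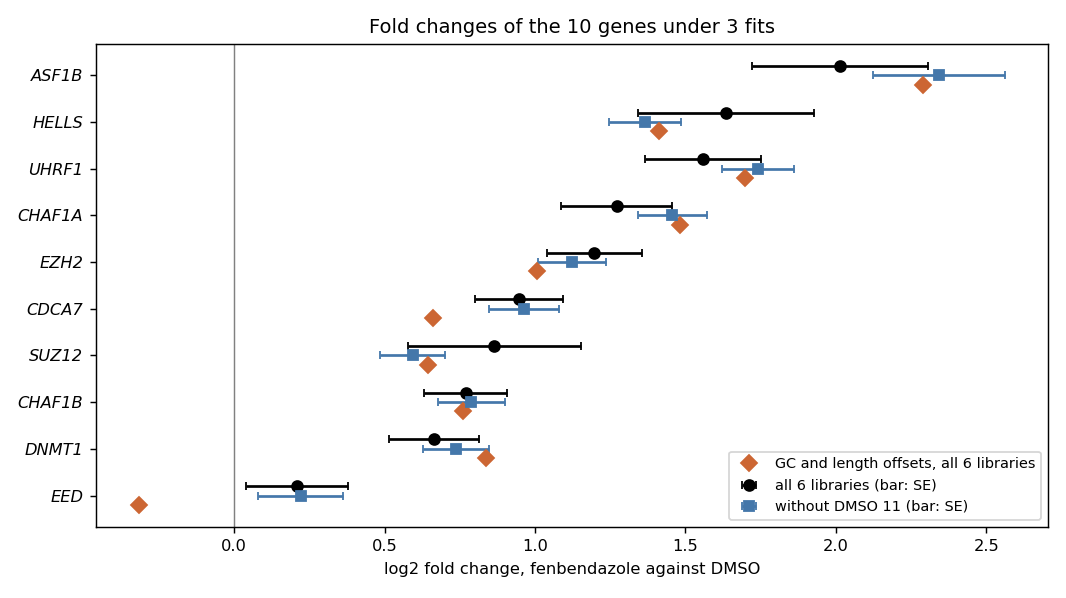
Log2 fold change of each gene (horizontal axis) with all 6 libraries (black, SE), without DMSO 11 (blue, SE) and with offsets for GC content and length (orange). Of the 10 genes, 9 lie above 0 in the 3 fits, while EED lies at 0.21, 0.22 and -0.32.

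The position of DMSO 11 among the controls varied with base composition. Set against the mean of DMSO 10 and 12, it was lower by more than 2-fold for SUZ12 (log2 ratio -1.08) and HELLS (-1.06), whose longest transcripts have a GC content of 38.0% and 37.6%. It was higher for ASF1B (0.74, GC content 58.4%), UHRF1 (0.48, 54.6%) and CHAF1A (0.48, 57.6%). EED, at 33.0% the lowest in GC content, was level (0.0082). Over the 10 genes Pearson's r was 0.75 and Spearman's rho 0.85, as a description only, since all points share the same 3 libraries. With offsets for GC content and length, 9 of the 10 genes were higher (adjusted p from 2.74e-06 for UHRF1 to 0.0179 for CDCA7 by edgeR's quasi-likelihood test), and 11.4% of all genes were higher in that fit.

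**Figure D3:**
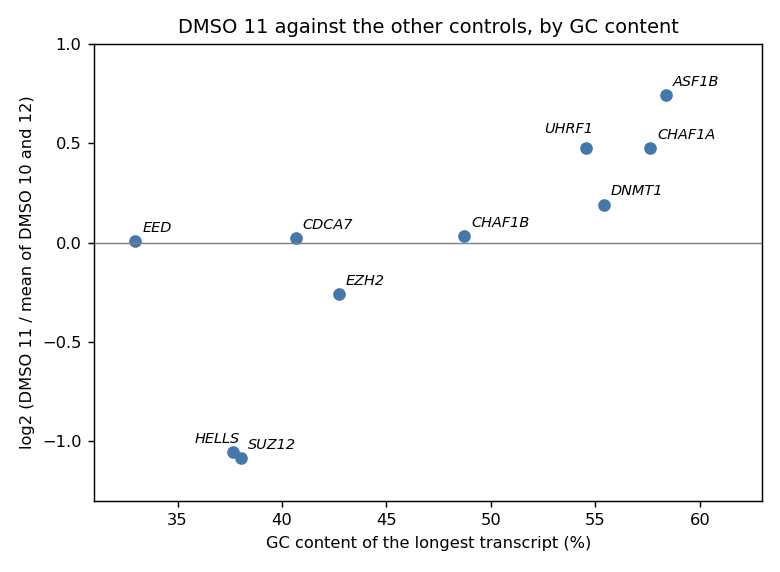
GC content of the longest GENCODE transcript of each of the 10 genes (horizontal axis, percent) against the log2 ratio of DMSO 11 to the mean of DMSO 10 and 12 (vertical axis). HELLS and SUZ12 lie near -1.1 at about 38% GC, and the 4 genes above 50% GC lie above 0.

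Per length, in the deposited FPKM values, SUZ12 and DNMT1 had the highest levels of the 10 genes in both groups. In DMSO they were at 30.4 ± 11.5 and 20.9 ± 3.46 FPKM and their ranges overlapped. CDCA7 (9.86 ± 0.909) and EED (9.24 ± 0.295) followed and did not differ beyond their spread, and EZH2 (8.23 ± 0.583) lay below EED. From EZH2 down through CHAF1A (7.32 ± 1.97), UHRF1 (5.21 ± 1.64), CHAF1B (4.75 ± 0.275), HELLS (4.64 ± 1.87) and ASF1B (2.20 ± 0.929), each overlapped the next. With fenbendazole SUZ12 (51.1 ± 3.56 FPKM) lay above DNMT1 (31.3 ± 0.414) in every library. Next came EZH2 (18.0 ± 2.31), CDCA7 (17.6 ± 0.708) and CHAF1A (17.1 ± 1.09), each overlapping its neighbour. UHRF1 (14.2 ± 0.867) and HELLS (14.0 ± 0.250) were alike within their spread. EED (10.2 ± 1.47) stood below them, above ASF1B (8.09 ± 0.840) and CHAF1B (7.89 ± 0.141), which overlapped each other. By group means EED had rank 4 in DMSO and rank 8 with fenbendazole, but in DMSO its range also overlapped that of CHAF1A, which lay above EED in DMSO 11.

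Ratios of 2 genes within a library do not depend on how libraries are scaled, and 10 pairs were compared as log2 ratios of counts. They can still vary with GC content where it differs within a pair, as for EZH2 (42.7%) and EED (33.0%). No GC offset was applied to them. With 3 libraries against 3, the exact permutation test (two-sided) can give no p below 0.1, so no pair could pass 0.05. EZH1, the other methyltransferase of PRC2, stood at -0.36 ± 0.126 on the log2 fold scale (adjusted p = 0.166 by edgeR's quasi-likelihood test). The log2 ratio of EZH2 to EZH1 was -1.26, -1.54 and -1.10 in DMSO 10, 11 and 12 and 0.09, 0.22 and 0.44 in fenbendazole 7, 8 and 9, so it changed sign between groups. The difference was 1.55 (exact permutation p = 0.1, 0.125 adjusted over the pairs), and 1.43 without DMSO 11. Per length EZH2 was at 8.23 ± 0.583 and EZH1 at 16.9 ± 1.15 FPKM in DMSO, and at 18.0 ± 2.31 and 11.8 ± 0.778 with fenbendazole.

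Inside PRC2, the ratio of EZH2 to EED was 0.43 ± 0.158 in DMSO and 1.42 ± 0.126 with fenbendazole (mean log2 ratio ± SD, n = 3, exact permutation p = 0.1), and the groups did not overlap. EZH2 to SUZ12 gave no such separation, at -2.44 ± 0.495 and -2.19 ± 0.176 (exact permutation p = 0.5), with DMSO 11 the highest of the 6. Without DMSO 11 that difference was 0.52 in place of 0.25, and the groups no longer overlapped. The ratio of CHAF1A to CHAF1B was 0.17 ± 0.256 in DMSO and 0.69 ± 0.160 with fenbendazole (exact permutation p = 0.1), again with no overlap.

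Other ratios set a member against its paralog. ASF1B to ASF1A, the paralog not tied to proliferation, was -4.21, -2.32 and -3.87 in DMSO and -2.02, -1.98 and -2.17 with fenbendazole. DMSO 11 lay close to the treated libraries, and the difference was 1.41 with it and 1.98 without it. UHRF1 to UHRF2 differed by 1.02 (1.36 without DMSO 11), also with no overlap. CDCA7 to CDCA7L overlapped between groups, with a difference of 0.31 (exact permutation p = 0.2), and CDCA7L alone was higher by 0.63 ± 0.147 on the log2 fold scale and did not pass (adjusted p = 0.0622 by edgeR's quasi-likelihood test).

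DNMT1 was also set against DNMT3A and DNMT3B, the methyltransferases that place new marks. The log2 ratio of DNMT1 to DNMT3A was 1.23, 1.17 and 0.96 in DMSO and 2.24, 2.18 and 2.44 with fenbendazole, a difference of 1.17 (1.19 without DMSO 11). DNMT3A alone stood at -0.49 ± 0.141 on the log2 fold scale (adjusted p = 0.105 by edgeR's quasi-likelihood test). Against DNMT3B (-0.03 ± 0.164, a sign that turned in 4 of the 18 other settings) the difference was 0.70. Against PCNA, which DNMT1 binds at the fork, the log2 ratio of DNMT1 was lower with fenbendazole, at 1.23 ± 0.281 in DMSO and 0.64 ± 0.0431 with the drug. The groups did not overlap in these 3 ratios (exact permutation p = 0.1 each).

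**Figure D4:**
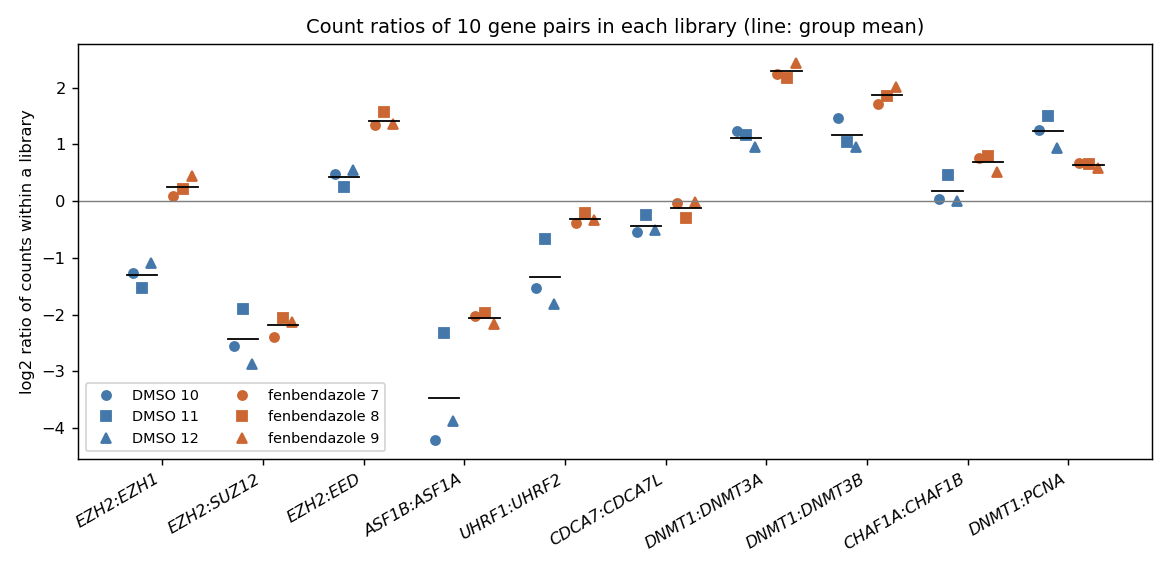
Log2 ratio of counts (vertical axis) for 10 gene pairs in each DMSO (blue) and fenbendazole (orange) library, with group means as lines. The groups overlap for EZH2 to SUZ12 and CDCA7 to CDCA7L and are apart for the other 8 pairs, and EZH2 to EZH1 goes from below 0 to above 0. Pairs that share a gene are not independent, and the share of all gene pairs that would be apart was not computed.

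Companion genes from the same pathways are given by list, and most genes of the whole table (16663 of 17363) did not pass the test. Of 22 other DNA methylation genes tested, among them the TET dioxygenases, the methyl-binding proteins and DNMT3A, 0 passed with edgeR's quasi-likelihood test or limma-voom, and the median log2 fold change was 0.04. At an unadjusted p of 0.05 this list had 3 higher and 1 lower genes, with DESeq2 2 and 1, and without DMSO 11 7 and 3. Over all genes these counts were 1870 and 1829 of 17363 at an unadjusted p of 0.05, and 1155 and 808 of 17351 with DESeq2. Without DMSO 11 they were 2313 and 1633 of 17689. Of 12 other PRC2 and H3 lysine 27 genes 1 passed, PHF19, a Polycomb-like subunit that helps PRC2 bind chromatin. It rose from 10.2 ± 3.58 to 30.05 ± 3.04 CPM (log2 fold change 1.55 ± 0.264, adjusted p = 0.0211 by edgeR's quasi-likelihood test). With DMSO 10 left out PHF19 no longer passed (adjusted p = 0.0968), nor with fenbendazole 7, 8 or 9 left out (0.105, 0.118 and 0.106), so 0 of the list passed. EZH1 (above) and JARID2 (-0.27 ± 0.133, adjusted p = 0.281) came next and did not pass. Without DMSO 11, 2 of these genes were higher and 2 lower. RBBP4, which PRC2 and CAF-1 share, stood at 0.12 on the log2 scale (adjusted p = 0.63) and was picked out with its value known. Of 20 genes of PRC1, the other Polycomb complex, 0 passed with edgeR, with 2 higher and 2 lower at an unadjusted p of 0.05, and 0 and 1 with DESeq2. PHC1, PCGF6 and CBX8 had the smallest p of that list, at -0.41 ± 0.139, 0.57 ± 0.202 and -0.80 ± 0.323 (adjusted p = 0.15, 0.167 and 0.212). Without DMSO 11, 2 PRC1 genes were higher and 2 lower.

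The list of other histone chaperones had 4 higher and 0 lower genes of 22, and a median of 0.35. HJURP, which deposits the centromeric histone CENP-A, rose from 14.9 ± 0.725 to 82.8 ± 4.59 CPM (2.48 ± 0.138, adjusted p = 0.000521 by edgeR's quasi-likelihood test). DNAJC9, a heat shock co-chaperone of H3 and H4, rose by 1.55 ± 0.143 and ANP32E, which removes the variant H2A.Z, by 1.36 ± 0.231. HAT1, which acetylates new histone H4, was the other (1.33 ± 0.270), and was added after its value was seen. Without DMSO 10 and without fenbendazole 7, 8 and 9, 2 of the list passed in each fit, and without DMSO 11, 14 were higher and 2 lower. ASF1A (0.60 ± 0.253, adjusted p = 0.226) did not pass.

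Lists of cell cycle genes give the surroundings of these changes. Of 32 replication fork and licensing genes 27 rose (median log2 fold change 1.28), among them CDC6 (1.78), which loads the replicative helicase, MCM10 (2.26) and CLSPN (2.24). All 20 mitotic genes rose (median 2.38), among them AURKA (2.91), KIF20A (2.90) and the cyclin CCNB1 (2.46). The largest change among the 10 chromatin genes, 2.01 for ASF1B, lay below that mitotic median, but without DMSO 11 ASF1B was at 2.34 and the mitotic median at 2.32. The replication count was 13, 12 and 13 without fenbendazole 7, 8 and 9, 18 without DMSO 10 and 32 without DMSO 11, and the mitotic count was 12, 14 and 12, then 14 and 20. Whether the lists differ was not tested.

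**Figure D5:**
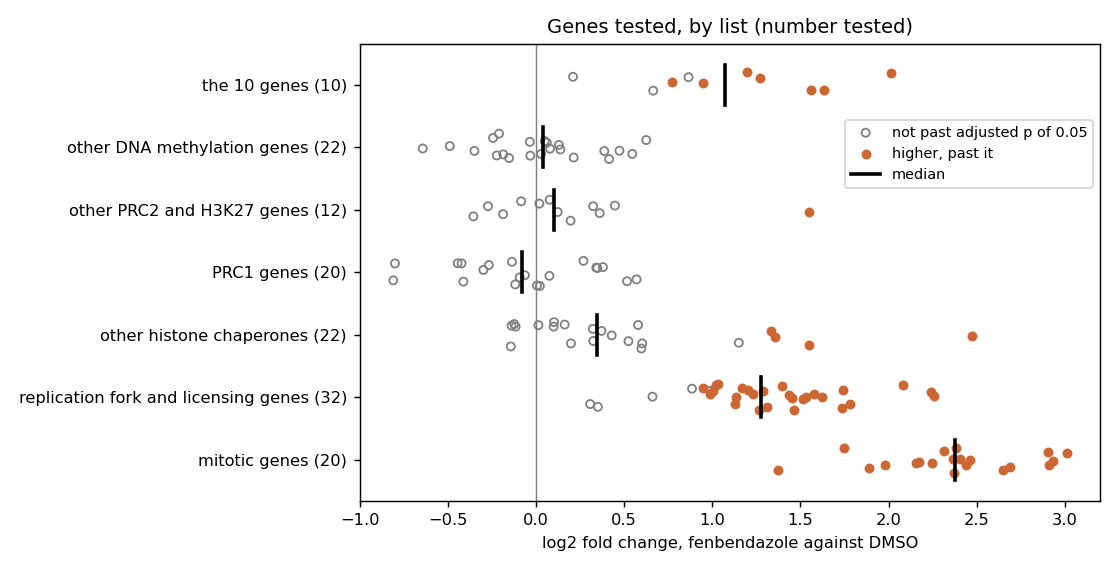
Log2 fold change (horizontal axis) of each tested gene in the 10-gene group and in 6 lists, with genes past the threshold filled and the list median as a black bar. The 10 genes center on 1.07, near the replication genes at 1.28, while the other DNA methylation genes, PRC1 genes and most PRC2 companions scatter around 0.

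Germline genes that somatic cells keep silent through DNA methylation were also read. Methylation itself was not measured, and their counts are not a readout of it. Of 20 such genes 8, among them DAZL and DDX4, had 0 counts in every library, which at 3 counts allows up to 0.136 to 0.228 CPM by counting error alone. The highest level of any was 1.78 CPM (SYCP3 in DMSO 10). Together they held 45 to 99 counts in a DMSO library and 51 to 58 in a fenbendazole library. Of the 3 that passed the filter, MAGEC2, SOHLH2 and SYCP3, 0 passed the test with edgeR, limma-voom or DESeq2, and 0 had an unadjusted p under 0.05. Their log2 fold changes were -0.89 ± 0.608, 0.78 ± 0.594 and -0.30 ± 0.438, the last turning sign without fenbendazole 7. At this depth no change was detected in these 3 genes, and the other 17 did not pass the filter and were not tested.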

How the data were processed

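Poly(A) RNA of SKOV3 cells was extracted with TRIzol and made into libraries with NEB's Ultra RNA kit, as stated per the labels' protocols. The authors deposited 2 values per gene and library, raw read counts and FPKM, per the file headers. The submitters' processing notes name GRCh38 and the tools CASAVA 1.8, HISAT2 2.1.0, StringTie 1.3.4b and edgeR. Which program counted reads, whether strand was used and which annotation served is not given in the sources used here.

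Counts were tested over the whole table with edgeR 4.0.16 (R 4.3.3), using TMM scaling and the robust quasi-likelihood F test. edgeR's own filter for low counts kept 17363 genes. The code was tested on simulated data. Each SE was computed from the F value. Levels are CPM, mean ± SD over 3 libraries, and 3 counts correspond to 0.136 to 0.228 CPM. Ratios of 2 genes used counts plus 0.5. For GC content and length, each gene's longest GENCODE release 29 transcript was used, which covered 97.8% of tested genes. Motifs were counted in RefSeq promoter windows. Figures were drawn with matplotlib 3.10.9.

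The 10 genes, the companion lists, the pairs and the other settings were chosen with earlier results of these data known, so their direction is not independent evidence. Named were the 10 genes, every gene of the pairs, up to 3 genes of each list with the smallest p, and ERBB2, MKI67, PCNA and CCNB1. Other settings were scaling by the upper quartile or by median-of-ratios, filters (none, or 1 CPM in all libraries of a group), DESeq2 1.42.0, limma-voom (limma 3.58.1) with and without library quality weights, a stricter threshold (0.01), testing for more than 1.5-fold change, limma on log2 FPKM plus 1 or 0.1, GC and length offsets, and leaving out each library.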

Additional observations from a re-analysis of the deposited data

How the results depend on the processing

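The labels do not state whether DMSO and fenbendazole libraries are paired, so no paired analysis was done. Of the 10 genes 7 were called; 2 were with an adjusted p of 0.01 and 2 with the test against a 1.5-fold change, and 0 to 9 when 1 library was left out. The other settings gave 6 to 9. Against 700 genes called in all, DESeq2 gave 1963, quality weights 4587, GC and length offsets 3591, an adjusted p of 0.01 210, the test against a 1.5-fold change 214, and leaving out 1 library 147 to 3946. EED was at -0.32 with GC offsets, and the other 9 genes kept a positive log2 fold change in all 18 settings. DNMT3B turned to 0.13 with quality weights, 0.082 with GC offsets, 0.11 without DMSO 11 and 0.04 without fenbendazole 9, with a range of -0.11 to 0.11 over the fits that left out 1 library. SYCP3 turned to 0.0059 without fenbendazole 7, in a range from -0.47. Over all settings the higher genes numbered 0 to 7 of the DNA methylation list, 0 to 3 of PRC2 and 0 to 4 of PRC1. They numbered 2 to 14 of chaperones, 12 to 32 of replication and 12 to 20 of mitosis. The main edgeR fit, with TMM scaling and edgeR's own filter, gave 0, 1, 0, 4, 27 and 20 in the same order. Other fits on all 6 libraries could differ from it. The DNA methylation list had 1 higher gene with the 1 CPM filter and 2 with DESeq2. Fewer libraries leave fewer degrees of freedom, and otherwise the cause was not tested. ASF1B, with 47 to 124 counts in a control, has the widest counting error of the 10.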
